A study of Mus musculus with 2 samples.

Results

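Ybx1, Ybx2, Ybx3, Pabpc1, Papolb, Fxr1, Paip2, Eif4g3 and Ddx25 are 9 genes whose proteins package mRNA or control its poly(A) tail and its translation in male germ cells. They were listed by name with earlier results of these data known, and no value enters the rule. All 9 could be assigned to a single row of the testis count matrix, among 5476 gene symbols with 1 possible row and 26758 rows. Their mRNA levels were compared between testis cells of WT and Tex13a-KO male C57BL/6N mice, 10 to 12 weeks old. In the KO mice, CRISPR/Cas9 removed every reading frame of Tex13a, an X-linked gene with 2 exons. The testes of 3 mice of a genotype (3 testes) were pooled before single-cell capture, so each genotype is 1 library. No difference between KO and WT therefore has a replicate check, no p-value is given, and genotype cannot be told apart from library. The study placed the cells in 13 clusters, which are Sg (spermatogonia), Sc1 and Sc2 (spermatocytes), Sd1 (described by the study as a mixture of spermatocytes and early spermatids) and Sd2 to Sd10 (spermatids).

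The WT library held 5170 cells with 45568532 UMIs and the KO library 7238 cells with 67734689 UMIs. A library held between 749010 and 12722633 UMIs per cluster, no cell had fewer than 3219 UMIs, and 0 cell barcodes were shared. The symbol Tex13a could stand for 7 rows and was not used to check the labels. In the WT library, 6 of 9 spermatocyte markers were highest in Sc1 or Sc2 and 3 in Sd1, 6 of 6 round spermatid markers were highest in Sd4 or Sd5, and 10 of 10 elongating spermatid markers in Sd7 to Sd10. Of the 4 spermatogonial markers, Uchl1 and Kit were highest in Sg, and Stra8 and Dazl in Sc1. In Sg, markers of elongating spermatids stood at 42072 CPM (UMIs per 1000000 UMIs of the cluster) in WT and 41806 CPM in KO, against 11088 and 9684 CPM in Sc2. In Sc1 they stood at 43449 and 46051 CPM. Of the somatic markers, 4 had 1 possible row (Cyp17a1, Myh11, Cd68 and Cd74). They stayed at or below 14.0 CPM in every cluster, except Cd74 at 59.9 CPM in Sd10 of WT. Of the listed markers, 0 of 6 for Sertoli cells and 0 of 4 for endothelium could be read, so these cells were not assessed.

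Transcription ends in the elongating spermatid as histones give way to protamines, and proteins of the sperm head and tail are made from mRNAs that were copied earlier and kept as repressed ribonucleoprotein particles. The Y-box proteins coat such mRNAs. Poly(A)-binding protein holds the tail and joins it to the initiation factors at the cap, its partner Paip2 removes it from the tail, and the testis poly(A) polymerase Papolb lengthens tails in the cytoplasm. The cap-side scaffold Eif4g3, the polysome protein Fxr1 and the RNA helicase Ddx25 act when stored mRNAs are exported, held or translated.

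The promoters are shown because the Y-box proteins took their name from a DNA element, the Y-box, whose core is the letters CCAAT on the reverse strand (ATTGG). The RefSeq windows of 250 bases before to 50 after the start (build GRCm38.p6) were matched by symbol for 7 of the 9 genes. CCAAT was searched on both strands and was found in 4 of the 7, namely Ybx1 with 3 matches, Ybx2 with 2, and Papolb and Ddx25 with 1 each, against 37.9% of 27025 promoters with at least 1 match and 12.2% with 2 or more. The stretches below lie outside annotated exons, read 5′ to 3′ along the gene, and have the matches in capitals. For Ybx1 it is chr4:119294605-119294658, minus strand, for Ybx2 chr11:69935749-69935773, plus strand, and for Papolb chr5:142530135-142530159, minus strand.
Ybx1: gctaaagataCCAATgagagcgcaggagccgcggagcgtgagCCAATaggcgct
Ybx2: cgcggctacgATTGGccggcggccg
Papolb: agaatttcctCCAATctcgtgagag
Ybx1 and Papolb carry these letters on the strand of the gene and Ybx2 on the other strand. The other match of Ybx1 and of Ybx2, and that of Ddx25, lie nearer to the start. These are matches of letters only, and no binding was measured.

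The 3 Y-box genes followed different courses through spermiogenesis. Ybx1 and Ybx3 were high from Sc2 to Sd6 and nearly gone from Sd8 on, whereas Ybx2 was present to the last cluster. All levels are UMI sums per library and cluster scaled to CPM, with 95% Poisson intervals that cover counting error only. Ybx1 (ENSMUSG00000028639.14), which binds mRNA in most cell types, lies at chr4:119277981-119294604 on the minus strand. Its level in WT was 815 CPM in Sg, 865 in Sc1, 2328 in Sc2 (interval 2293 to 2364), 2056 in Sd1, 2100 in Sd2, 1917 in Sd3, 1560 in Sd4, 1568 in Sd5, 1802 in Sd6 (1754 to 1852), 450 in Sd7 (432 to 469), 123 in Sd8, 95.8 in Sd9 (84.3 to 108) and 111 in Sd10. The drop was abrupt, 4.0-fold from Sd6 to Sd7 and a further 3.66-fold from Sd7 to Sd8. In KO it was 840, 1007, 2365, 2127, 2150, 1985, 1563, 1602, 1776, 379, 163, 147 and 99.3 CPM over the same clusters. The drop from Sd6 to Sd7 was 4.69-fold there, and that from Sd7 to Sd8 2.32-fold. In Sd8 the level of Ybx1 was near that of markers of earlier stages, so the second step is no more than a lower bound for expression. The order of the clusters by level was the same in both libraries down to Sd8, and the intervals of Sd1 and Sd2 and of Sd4 and Sd5 overlapped in both. The intervals of Sd9 and Sd10 overlapped in WT and not in KO.

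Ybx3 (ENSMUSG00000030189.15, chr6:131364855-131388476, minus strand) is a Y-box protein of germ cells, also called MSY4. It left later than Ybx1. From Sd6 to Sd7 it was only 2.02-fold lower in WT and 2.12-fold lower in KO, and the larger step, 4.26-fold in WT and 3.51-fold in KO, lay between Sd7 and Sd8. In Sd8 the level of Ybx3 was near that of round spermatid markers, so the larger step is no more than a lower bound for expression. Its WT level was 134 CPM in Sg, 88.2 in Sc1, 812 in Sc2, 774 in Sd1, 741 in Sd2, 647 in Sd3, 506 in Sd4, 479 in Sd5, 585 in Sd6, 289 in Sd7, 67.8 in Sd8, 40.5 in Sd9 and 43.1 in Sd10. In KO it was 192, 76.1, 940, 863, 843, 747, 590, 529, 625, 294, 83.9, 51.3 and 41.4 CPM. Both libraries thus had the highest level in Sc2, and the intervals of Sd9 and Sd10 overlapped in each.

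Ybx2 (ENSMUSG00000018554.13, chr11:69935796-69941605, plus strand), known as MSY2, is the germ cell Y-box protein that is needed to keep protamine mRNAs in store. It had 2 maxima. The WT level was 275 CPM in Sg, 352 in Sc1, 1376 in Sc2 (1349 to 1404), 1059 in Sd1, 1070 in Sd2, 902 in Sd3, 681 in Sd4, 632 in Sd5 (603 to 663), 808 in Sd6, 863 in Sd7, 986 in Sd8, 1360 in Sd9 (1315 to 1405) and 866 in Sd10 (815 to 919). In KO it was 316, 331, 1292, 991, 1061, 888, 614, 611, 734, 847, 973, 1318 and 827 CPM. The maxima in Sc2 and Sd9 had overlapping intervals in both libraries, so which of them is higher is not resolved. On the scale of UMIs per cell the first was larger, with 18.3 UMIs in Sc2 and 7.73 in Sd9 of KO, where the median cell held 11467.5 UMIs in Sc2 and 4978 in Sd9.

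The makeup of the Y-box UMIs turned over within 3 clusters. In WT, Ybx2 gave 25.3% of the Ybx1, Ybx2 and Ybx3 UMIs in Sd6 (24.4 to 26.2%, exact binomial interval), 53.9% in Sd7 (52.8 to 54.9%), 83.8% in Sd8 and 90.9% in Sd9 (89.9 to 91.8%). In KO its share was 23.4% in Sd6, 55.7% in Sd7, 79.8% in Sd8 and 86.9% in Sd9 (85.8 to 88.0%). In Sd10 the share was 84.9% (82.8 to 86.8%) in WT and 85.5% (83.7 to 87.1%) in KO. Ybx1 and Ybx3 were near the level of markers of earlier stages in Sd8 and were read as background in Sd9 and Sd10. The libraries were therefore not compared in these clusters. The shares are read over clusters, not as relative amounts of the 3 mRNAs, because the counts were not scaled to transcript length.

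**Figure D1:**
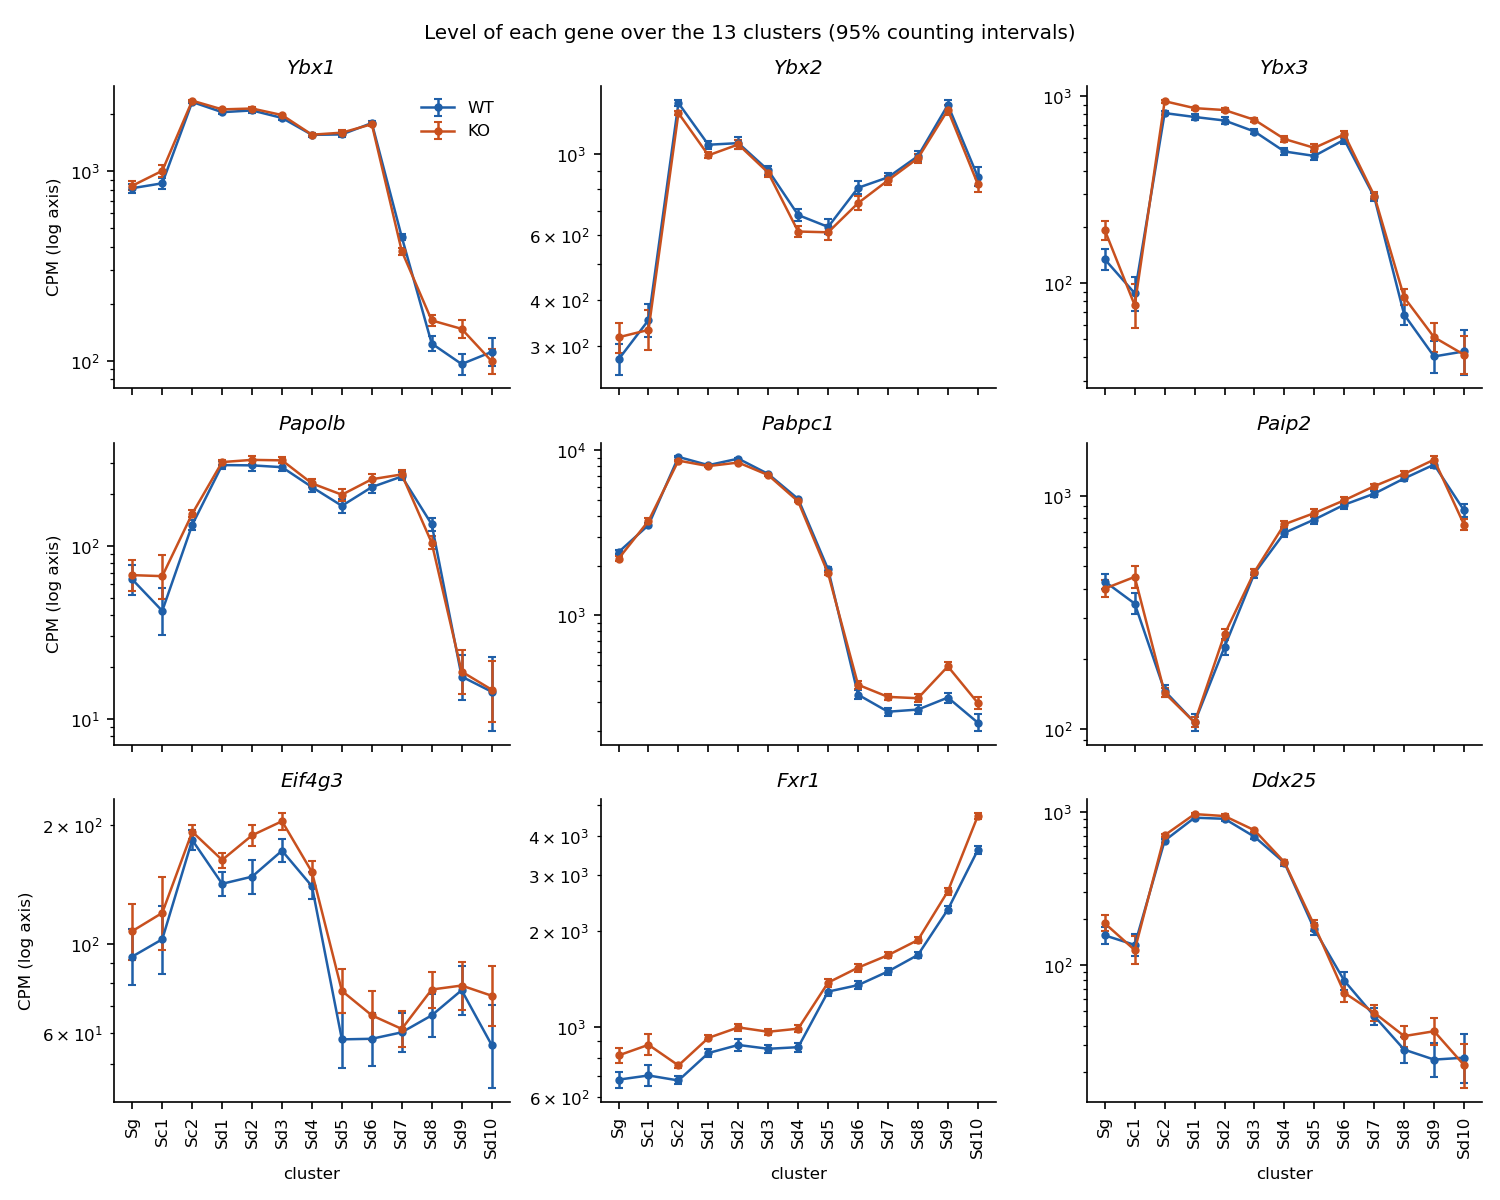
Level of each of the 9 genes in CPM (log axis) over the 13 clusters in WT (blue) and KO (orange), with 95% Poisson intervals for counting error and 1 library per genotype. Ybx1, Ybx3, Pabpc1, Papolb and Ddx25 were lowest in Sd9 or Sd10 in both libraries, Paip2 was highest in Sd9 and Fxr1 in Sd10, and Ybx2 had maxima in Sc2 and Sd9.

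Pabpc1 and its antagonist Paip2 ran in opposite directions. Pabpc1 (ENSMUSG00000022283.15, chr15:36595661-36609668, minus strand), the main cytoplasmic poly(A)-binding protein, was highest in Sc2 and Sd2 and nearly gone by Sd6. In WT it stood at 2416 CPM in Sg, 3519 in Sc1, 9111 in Sc2 (9041 to 9181), 8120 in Sd1, 8892 in Sd2, 7177 in Sd3, 5067 in Sd4, 1900 in Sd5, 331 in Sd6, 261 in Sd7, 269 in Sd8, 318 in Sd9 (296 to 340) and 224 in Sd10 (199 to 252). It was thus 15.3-fold lower in Sd6 than in Sd4, and 40.6-fold lower in Sd10 than in Sc2. From Sd6 on Pabpc1 was read as background, as described below. These folds, and those of KO, are therefore no more than lower bounds for the drop in expression. In KO the levels were 2205, 3730, 8651, 8015, 8422, 7067, 4894, 1793, 380, 321, 315, 491 and 295 CPM, with a 12.9-fold difference between Sd4 and Sd6 and 29.3-fold between Sc2 and Sd10. Pabpc1 left before Ybx1, which still stood at 1802 CPM in Sd6 of WT and at 1776 CPM in Sd6 of KO.

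Paip2 (ENSMUSG00000037058.16), which displaces poly(A)-binding protein from the tail, was lowest in Sd1 in both libraries and higher in each later cluster up to Sd9. The annotated gene Slc23a1 overlaps it on the other strand. The WT levels were 429 CPM in Sg, 345 in Sc1, 146 in Sc2, 107 in Sd1 (98.2 to 116), 225 in Sd2, 465 in Sd3, 693 in Sd4, 790 in Sd5, 914 in Sd6, 1019 in Sd7, 1184 in Sd8, 1357 in Sd9 (1312 to 1402) and 864 in Sd10 (813 to 917). In KO they were 400, 449, 143, 107, 255, 472, 754, 842, 955, 1097, 1239, 1425 and 751 CPM. Sd9 was 12.7-fold above Sd1 in WT and 13.3-fold in KO. Counted per cell, the KO maximum lay in Sd4, with 8.68 UMIs against 8.36 in Sd9, and the WT maximum in Sd9, with 8.44 UMIs.

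The UMIs of Paip2 per UMI of Pabpc1 passed 1 between Sd5 and Sd6 in both libraries. In WT there were 0.0132 in Sd1 (0.0121 to 0.0143), 0.416 in Sd5 (0.395 to 0.437), 2.76 in Sd6 (2.57 to 2.98), 4.40 in Sd8, 4.27 in Sd9 (3.96 to 4.61) and 3.85 in Sd10 (3.37 to 4.41). In KO there were 0.0134, 0.470, 2.52, 3.93, 2.90 (2.72 to 3.09) and 2.54 (2.30 to 2.82) in those clusters. The KO ratio was above the WT ratio in every cluster from Sg to Sd5, without overlap of the intervals in Sd2, Sd4 and Sd5. From Sd6 on it was below the WT ratio, but there Pabpc1, the denominator, was read as background and the libraries were not compared. From Sd6 to Sd8, Pabpc1 itself stood at 0.0576 to 0.0729 of its mean over all cells in WT and 0.0598 to 0.0720 in KO, below the summed spermatocyte markers in each of these clusters (0.0820 to 0.117 and 0.0778 to 0.109). In Sd9 and Sd10 it stood at 0.0700 and 0.0494 in WT and 0.0932 and 0.0560 in KO. The value 1 has no meaning of its own, since neither count is scaled to length.

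**Figure D2:**
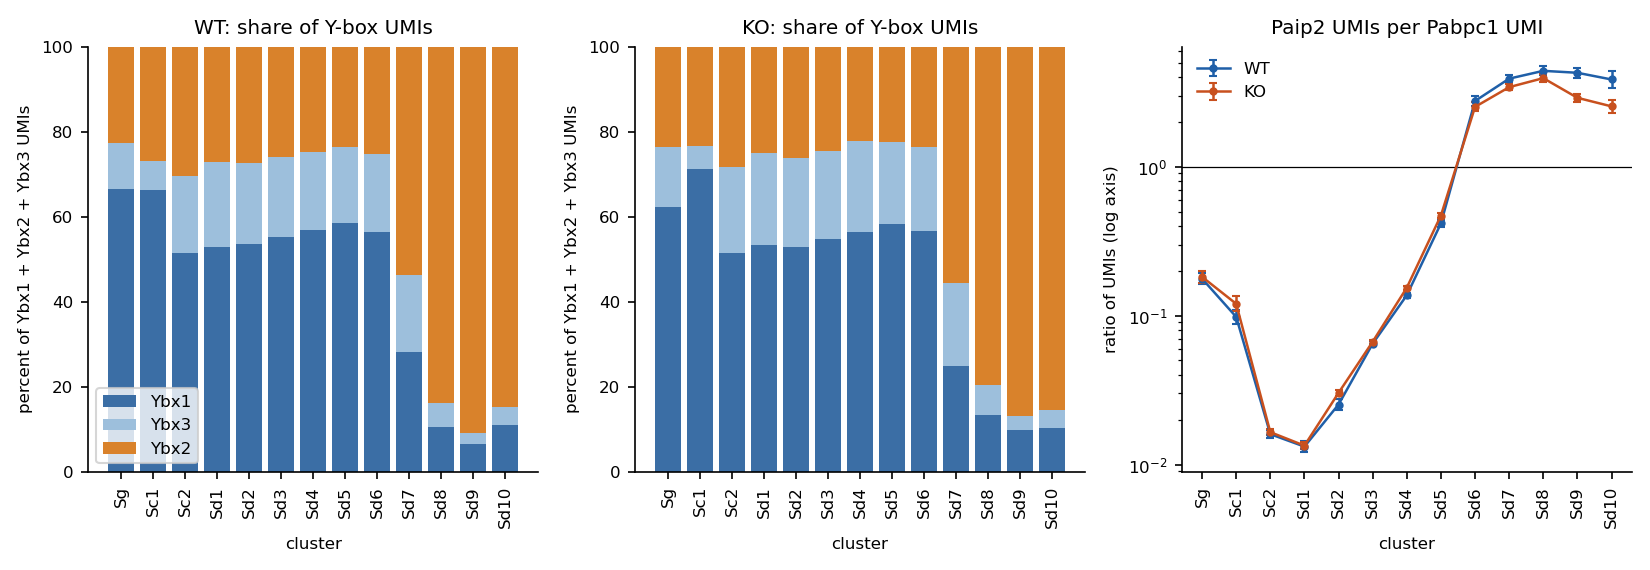
Left and middle, percent of the summed Ybx1, Ybx2 and Ybx3 UMIs that each gene gave in the 13 clusters of WT and KO. Right, Paip2 UMIs per Pabpc1 UMI (log axis, exact binomial intervals), 0.416 in WT and 0.470 in KO in Sd5 and 2.76 and 2.52 in Sd6.

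Papolb (ENSMUSG00000074817.2, chr5:142525838-142530076, minus strand) has a single exon and overlaps the annotated gene Radil on the same strand. It encodes the poly(A) polymerase of the spermatid cytoplasm. Its WT level was 63.9 CPM in Sg, 42.1 in Sc1, 132 in Sc2, 292 in Sd1 (278 to 307), 291 in Sd2, 284 in Sd3, 218 in Sd4, 170 in Sd5, 218 in Sd6, 251 in Sd7 (238 to 265), 133 in Sd8, 17.6 in Sd9 (12.9 to 23.4) and 14.4 in Sd10. In KO it was 67.7, 66.8, 153, 304, 313, 311, 229, 197, 242, 258, 104, 18.8 and 14.8 CPM. Sd1, Sd2 and Sd3 had overlapping intervals at the top of the order in both libraries. Papolb was the last of the early genes to leave, 7.52-fold lower in Sd9 than in Sd8 in WT and 5.51-fold lower in KO. Its level in Sd9 was read as background, so both folds are no more than lower bounds for expression. Only 46 WT and 48 KO UMIs were left in Sd9, and 18 and 26 in Sd10.

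Eif4g3 and Fxr1, on the translation side, differed in course. Eif4g3 was lower from Sd5 on than in Sc2 to Sd4, and Fxr1 was highest in Sd10. Eif4g3 (ENSMUSG00000028760.16, chr4:137993022-138208508, plus strand) is an eIF4G scaffold that male meiosis depends on. Its WT level was 93.2 CPM in Sg, 103 in Sc1, 183 in Sc2, 142 in Sd1, 148 in Sd2, 172 in Sd3, 140 in Sd4, 57.7 in Sd5, 57.9 in Sd6, 60.1 in Sd7, 66.3 in Sd8, 76.7 in Sd9 and 55.9 in Sd10 (43.6 to 70.6), and its KO level 108, 120, 192, 163, 188, 204, 152, 76.4, 66.3, 61.3, 77.0, 78.8 and 74.3 CPM. Of the 12 neighbouring pairs in the order of the WT levels, 11 had overlapping intervals, and of those in KO 10. The step from Sd4 to Sd5 was outside these overlaps, 2.43-fold lower in WT and 1.98-fold lower in KO. An annotated antisense gene overlaps Eif4g3, and whether reads were counted by strand is not given in the sources used here.

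Fxr1 (ENSMUSG00000027680.15, chr3:34019943-34070322, plus strand) is a relative of the fragile X protein that activates translation of stored mRNAs in spermatids. It was the one gene of the 9 with its highest level in the last cluster. The WT levels were 682 CPM in Sg, 703 in Sc1, 678 in Sc2 (659 to 698), 827 in Sd1, 877 in Sd2, 853 in Sd3, 863 in Sd4, 1291 in Sd5, 1353 in Sd6, 1494 in Sd7, 1684 in Sd8, 2340 in Sd9 (2282 to 2399) and 3601 in Sd10 (3497 to 3708). The KO levels were 813, 878, 756, 923, 996, 965, 987, 1378, 1536, 1681, 1876, 2671 and 4611 CPM (4511 to 4712 in Sd10). From Sd5 on each cluster was above the one before, by 1.54-fold from Sd9 to Sd10 in WT and 1.73-fold in KO, and of these steps only that from Sd5 to Sd6 in WT had overlapping intervals. The UMIs per cell also peaked in Sd10, with 24.5 in WT and 29.2 in KO, against 14.6 and 15.7 in Sd9. After thinning to 3000 UMIs, 99.5% of WT cells and 100% of KO cells of Sd10 had an Fxr1 UMI. An annotated gene on the other strand, Dnajc19, overlaps Fxr1.

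Ddx25 (ENSMUSG00000032101.6, chr9:35536647-35558528, minus strand), the gonadotropin-regulated testicular helicase that exports and stores mRNAs of round spermatids, had its maximum in Sd1, overlapping with Sd2, and was low from Sd6 on. In WT it stood at 156 CPM in Sg, 135 in Sc1, 650 in Sc2, 918 in Sd1 (892 to 944), 903 in Sd2, 689 in Sd3, 466 in Sd4, 171 in Sd5, 78.8 in Sd6, 46.3 in Sd7, 27.9 in Sd8, 24.0 in Sd9 (18.5 to 30.8) and 24.7 in Sd10, and in KO at 187, 125, 705, 969, 941, 760, 470, 181, 65.7, 48.6, 34.2, 36.8 and 22.1 CPM. The highest level was 38.2-fold above the lowest in WT and 43.8-fold in KO. The lowest levels, in Sd9 and Sd10, were read as background, so these folds are no more than lower bounds for expression. The course of Ddx25 was the most like that of Pabpc1 among the 9 (r = 0.96 in WT and in KO over the 13 clusters, on log2(CPM + 10)). Pabpc1 and Paip2 had r = -0.84 in WT and -0.81 in KO. These correlations are descriptions over clusters that share a library and a total.

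Over the 9 genes, the log2 ratio of Sd10 to Sd3 in WT ran from -5.00 for Pabpc1 to 2.08 for Fxr1, with a median of -3.90. The median of the 7593 genes read in these 2 clusters was -2.93, and 16.6% of them were higher in Sd10. A prior of 1 UMI per gene, shared by depth, was added, and genes with at least 50 UMIs in both samples together were read. Ybx1 (-4.11), Ybx3 (-3.90), Papolb (-4.29), Pabpc1 (-5.00) and Ddx25 (-4.79) lay below the median of all genes. Their levels in Sd10 were read as background in both libraries, so their ratios do not give the exact drop in expression. Eif4g3 (-1.62), Ybx2 (-0.06), Paip2 (0.89) and Fxr1 (2.08) lay above the median of all genes. Eif4g3 was therefore lower in Sd10 than in Sd3 by CPM, and higher (1.31) relative to the median gene. In KO the same ratio was -4.32 for Ybx1, -0.10 for Ybx2, -4.17 for Ybx3, -4.39 for Papolb, -4.58 for Pabpc1, 0.67 for Paip2, -1.46 for Eif4g3, 2.26 for Fxr1 and -5.09 for Ddx25. The cluster with the highest level was the same in both libraries for 6 of the 9 genes, and for Ybx2, Papolb and Eif4g3 the intervals of the competing clusters overlapped. No share over all genes is given for this count, which is a description only.

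The comparison of KO with WT asks whether loss of Tex13a, which the study links to mRNA turnover, went with other levels of these genes. In most clusters the libraries were close. A gene was counted as apart where its CPM differed at least 1.5-fold (log2 0.58) and it had at least 50 UMIs. By this count 0 of the 9 genes differed in Sg (8.84% of all genes read there), 1 of 9 in Sc1 (8.53%), 0 in Sc2 (7.54%), 0 in Sd1 (5.31%), 0 in Sd2 (6.66%), 0 in Sd3 (4.75%), 0 in Sd4 (5.59%), 0 in Sd5 (5.72%), 0 in Sd6 (6.84%), 0 in Sd7 (6.99%), 0 in Sd8 (7.44%), 3 of 9 in Sd9 (12%, 491 of 4108) and 0 of the 8 read in Sd10 (14.5%). The gene in Sc1 was Papolb, at 43 WT and 50 KO UMIs with a log2 ratio of 0.66 (0.05 to 1.29). Its level there was 0.220 of the library mean in WT and 0.305 in KO, below that of the elongating spermatid markers in Sc1 (0.393 and 0.534). Both late clusters had more genes past the fold than the others, and fewer genes read, 4108 in Sd9 and 2762 in Sd10. The median log2 ratio of the 9 genes was 0.19 in Sd9, where that of all genes was 0.05, and -0.06 over the 8 read in Sd10, where that of all genes was 0.03. Both medians include genes whose levels there were read as background, as described below. In Sd9 these were Ybx1 (0.62), Ybx3 (0.34), Papolb (0.10), Pabpc1 (0.63) and Ddx25 (0.61). The others were at -0.05 (Ybx2), 0.07 (Paip2), 0.04 (Eif4g3) and 0.19 (Fxr1).

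Fxr1 was higher in KO in 13 of 13 clusters, with intervals above 0 in each. The log2 ratio ran from 0.09 (0.03 to 0.16) in Sd5 to 0.36 (0.30 to 0.41) in Sd10. Eif4g3 was also higher in KO in 13 of 13 clusters by CPM, with 4 intervals above 0 and a range from 0.03 in Sd7 to 0.41 (-0.02 to 0.85) in Sd10. In Sd9 its ratio of 0.04 became -0.05 as UMIs per cell and -0.01 centred on the median gene. In Sd7 it had 0.441 UMIs per cell in WT and 0.416 in KO. Of the 1841 genes with at least 50 UMIs in all clusters, 6.84% were higher in KO in every one of them. The clusters come from the same 2 libraries and are not separate tests of a genotype difference. Every interval was above 0 for 0.489% of them, and this asks for many UMIs in each cluster. Outside Sd10 the ratio of Fxr1 was at most 0.32 (Sc1). On the scale of UMIs per cell it was 0.25 in Sd10 and 0.11 in Sd9.

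Ybx2 was lower in KO in 12 of 13 clusters, with 4 intervals below 0, but by small amounts, the largest being -0.15 (-0.22 to -0.08) in Sd4. The 12 include Sc1, where its level was read as background. As UMIs per cell, Ybx2 was also higher in KO in Sd1, Sd2 (10.2 against 9.12 in WT) and Sd3. In Sd10 its ratio was -0.07, but 0.06 with the mean of single-cell CPM and 0.08 with cells thinned to 3000 UMIs. Of the same 1841 genes, 8.80% were lower in KO in at least 12 clusters. Ybx3 was higher in KO in 11 of 13 clusters, with 8 intervals above 0. Of the 1841 genes, 368 were higher in at least 11 clusters, and 8.80% had in addition at least 8 intervals above 0. The 8 include Sg, at 0.52 (0.26 to 0.78), where Ybx3 was at 0.271 of its library mean in WT and 0.304 in KO, below Prm1 (0.397 and 0.496). They also include Sd8, at 0.31 (0.08 to 0.54), where Ybx3 was at 0.137 and 0.133, near the round spermatid markers (0.123 and 0.170). Neither ratio was read as a difference in expression. From Sc2 to Sd6 the ratio of Ybx3 was between 0.10 and 0.22. Ybx1, by contrast, lay within 0.05 of 0 from Sc2 to Sd6, then was -0.25 (-0.33 to -0.16) in Sd7, 0.41 (0.24 to 0.58) in Sd8, 0.62 (0.38 to 0.85) in Sd9 and -0.16 (-0.49 to 0.17) in Sd10. In Sd8, Ybx1 stood at 0.0870 of its library mean in WT and 0.101 in KO, near the summed markers of spermatocytes (0.0926 and 0.0794) and below those of round spermatids (0.123 and 0.170), so its ratio there was not read as a difference in expression. Papolb was lower in KO in Sd8, at -0.35 (-0.53 to -0.17), the cluster in which it was disappearing. Paip2 was lower in Sd10, at -0.20 (-0.32 to -0.08), and 6 intervals lay above 0, in Sc1 (0.38), Sd2 (0.18), Sd4 (0.12), Sd5 (0.09), Sd7 (0.11) and Sd8 (0.07).

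**Figure D3:**
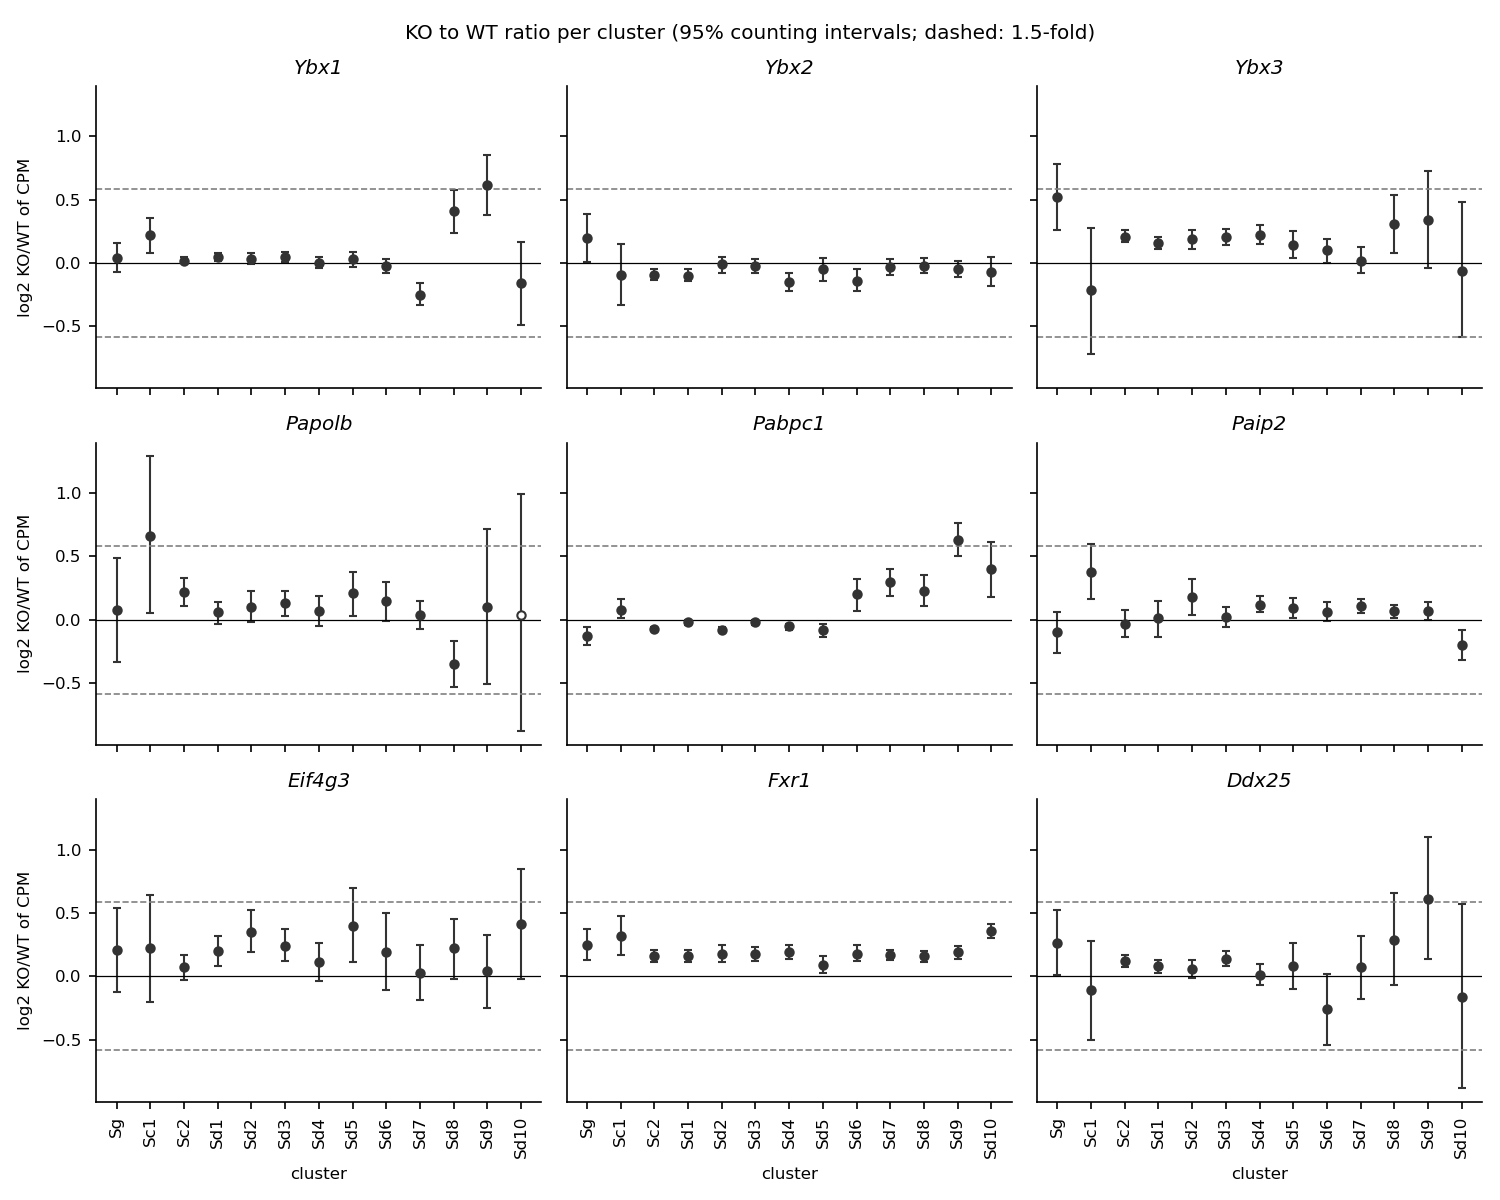
KO over WT CPM of each gene as a log2 ratio in the 13 clusters, with 95% exact binomial intervals for counting error. Dashed lines mark 1.5-fold, and the open point has fewer than 50 UMIs. Fxr1 lies above 0 in 13 of 13 clusters, and the points past the dashed line are Papolb in Sc1 and Ybx1, Pabpc1 and Ddx25 in Sd9.

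The 3 genes apart in Sd9 were Pabpc1, Ybx1 and Ddx25, all higher in KO, and each fell short of 1.5-fold under other settings. As UMIs per cell the log2 ratio was 0.54 for Pabpc1 and 0.53 for Ybx1 and Ddx25, and centred on the median gene it was 0.56 for Ybx1 and Ddx25. Pabpc1 had 832 UMIs in WT and 1254 in KO (log2 ratio 0.63, 0.50 to 0.76), Ybx1 251 and 375 (0.62, 0.38 to 0.85) and Ddx25 63 and 94 (0.61, 0.14 to 1.10). In Sd10 they were at 0.40 (0.18 to 0.61), -0.16 (-0.49 to 0.17) and -0.16 (-0.88 to 0.57). Pabpc1 had intervals below 0 in 5 clusters up to Sd5, the lowest ratio being -0.13 in Sg, and one above 0 in Sc1 (0.08). It was higher in all 5 clusters from Sd6 on with intervals above 0, at 0.20, 0.30, 0.23, 0.63 and 0.40. The UMIs were unevenly spread over the cells of Sd9. Of 421 WT cells, the 5 with most UMIs of the gene held 22.8% of the Pabpc1 UMIs, 19.1% of those of Ybx1 and 31.7% of those of Ddx25, and of 435 KO cells 16.3%, 17.9% and 23.4%. The share of cells with a UMI, after thinning each cell to 3000 UMIs, was 42.3% in WT and 54.0% in KO for Pabpc1 (58.7% and 69.9% without thinning), 19.7% and 27.6% for Ybx1 (31.4% and 42.8%), and 5.46% and 9.89% for Ddx25 (9.74% and 14.9%).

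These late levels were within the range of markers of earlier stages. Each level was divided by the mean of its library over all cells. In Sd9 of WT, Ybx1, Ybx3, Papolb, Pabpc1 and Ddx25 stood at 0.0580 to 0.0915 of that mean, and 15 markers of spermatocytes and round spermatids at 0.0324 to 0.178 (median 0.0871). In Sd9 of KO the 5 genes stood at 0.0684 to 0.0932 and the markers at 0.0511 to 0.240 (median 0.10). In Sd10 the 5 genes were at 0.0494 to 0.0873 in WT and 0.0411 to 0.0675 in KO, with marker medians of 0.0649 and 0.0766. In the reverse case, the spermatid mRNA Prm1 in Sc2 to Sd3 stood at 0.0700 to 0.0998 of its mean in WT and 0.0866 to 0.108 in KO. Shares and levels of the 5 genes in Sd9 and Sd10 were therefore read as background, and so was Pabpc1 from Sd6 to Sd8, where it lay below the spermatocyte markers. Background means here only that a level was not told apart from those of genes of other stages. Whether such UMIs are mRNA that the cells still held was not tested. Ybx2 (1.43 and 1.39), Paip2 (2.22 and 2.64), Fxr1 (1.99 and 2.14) and Eif4g3 (0.655 and 0.549) were well above that level in Sd9.

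**Figure D4:**
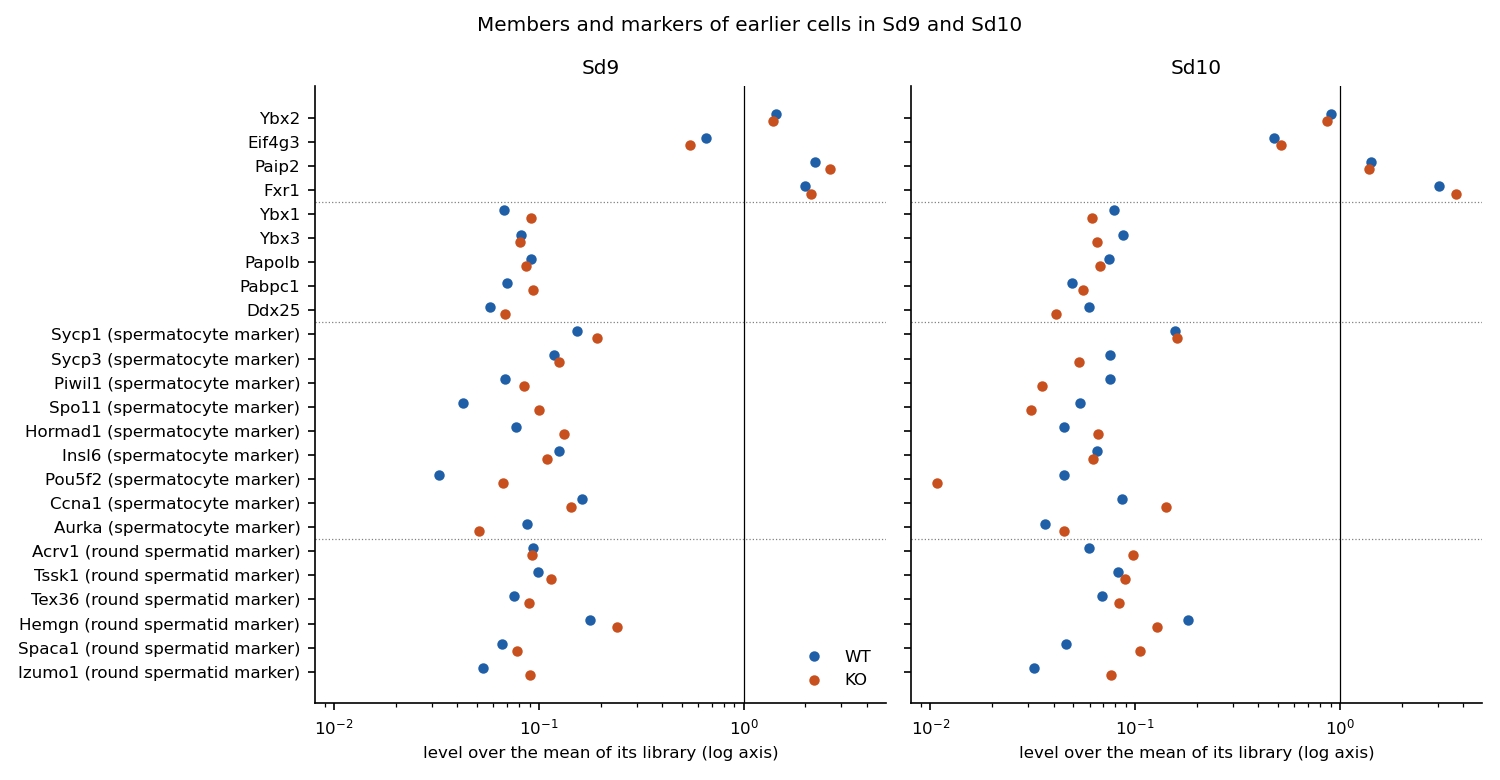
Level in Sd9 (left) and Sd10 (right) divided by the mean of its library over all cells (log axis), WT in blue and KO in orange, for the 9 genes and 15 markers of spermatocytes and round spermatids. Ybx1, Ybx3, Papolb, Pabpc1 and Ddx25 lie within the range of the markers in both clusters, and Ybx2, Eif4g3, Paip2 and Fxr1 above it.

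Many other early genes were also higher in KO in Sd9. Over both libraries, 1137 genes were highest in one of Sg to Sd4 and at least 10-fold lower in Sd9. Of these, 79.8% were higher in KO and 26.1% were at least 1.5-fold apart, with a median log2 ratio of 0.31, against 57.5% and 12% of all genes. This set, which holds Ybx1, Ybx3, Papolb, Pabpc1 and Ddx25, was chosen after the values were seen. Among spermatocyte markers 5 of the 5 read were higher in KO in Sd9, with a median of 0.21, and among round spermatid markers 4 of 5, with a median of 0.14. In Sd8, 67.5% of 1396 genes chosen in the same way were higher in KO, with a median of 0.17, against 54.8% of all genes. There 6 of 6 round spermatid markers were higher in KO, with a median of 0.35, and 1 of 6 spermatocyte markers, with a median of -0.07. In Sd10, 62.2% of 579 such genes were higher in KO, with a median of 0.13, against 53.1% of all genes. There 3 of 5 spermatocyte markers and 1 of 2 round spermatid markers were higher in KO. Of the markers read in Sd9, Hormad1 had the highest ratio, 1.10 (0.61 to 1.62), and the only interval above 0. The median mitochondrial percentage of UMIs was higher in KO in all 13 clusters, among them Sd3 (0.351 against 0.256), Sd9 (0.637 against 0.408) and Sd10 (0.686 against 0.491). What part these play in the ratios of the 3 genes in Sd9, and of Ybx1 and Ybx3 in Sd8, was not tested. In Sg, too, the levels of Ybx2 (0.289 of the library mean in WT), Ybx3 (0.271), Papolb (0.333) and Ddx25 (0.376) were no higher than that of Prm1 (0.397), a spermatid mRNA, and were read as background. In Sg of KO they were at 0.332, 0.304, 0.310 and 0.347, and Prm1 at 0.496. Pabpc1 was above Prm1 in Sg of WT (0.533) and below it in Sg of KO (0.418). In Sc1, Prm1 stood at 0.413 in WT and 0.557 in KO. Ybx2 (0.369 and 0.348), Ybx3 (0.178 and 0.120), Papolb (0.220 and 0.305) and Ddx25 (0.326 and 0.233) were below it there and were read as background.

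**Figure D5:**
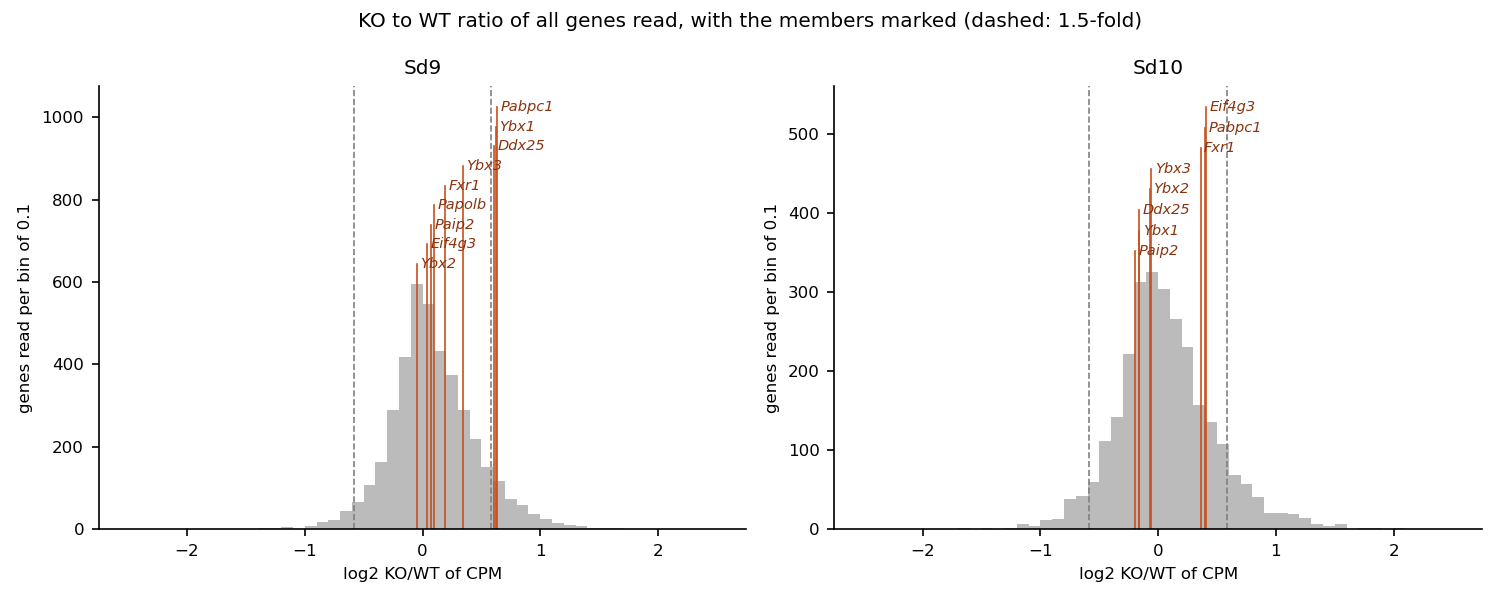
Number of genes per bin of the KO over WT log2 ratio in Sd9 and Sd10, for all genes with at least 50 UMIs, with the genes described here marked and 1.5-fold shown by dashed lines. Pabpc1, Ybx1 and Ddx25 lie at 0.61 to 0.63 in Sd9, where 12% of genes are past the fold, and 0 of 8 are past it in Sd10.

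Genes with related roles were read from lists compiled by hand, of which only a part had 1 possible row. Counts of listed genes by their highest cluster are given without the share of all genes and are descriptions only. In the list of Y-box and packaging proteins, Carhsp1, a cold-shock domain protein, was highest in Sd10 in both libraries, at 1644 CPM in WT and 1938 in KO (log2 ratio 0.24, 0.16 to 0.32), and Strap was highest in Sd2. In the list of poly(A)-binding proteins and partners, 3 further genes could be read. Pabpc6 and Pabpc2, testis relatives of Pabpc1, were highest in Sd1 like Ddx25. Pabpc6 was higher in KO in Sd9, at 114 WT and 224 KO UMIs (1.01, 0.68 to 1.35), and in Sd10, at 34 and 97 UMIs (1.01, 0.44 to 1.63). Pabpc2 stood at 0.55 (0.28 to 0.82) in Sd9 and 0.89 (0.49 to 1.30) in Sd10. In WT, Pabpc6 was at 43.5 CPM in Sd9 and 27.1 in Sd10 against 2746 in Sd1, and Pabpc2 at 75.9 and 57.5 against 1673, so that these late levels, like those of Pabpc1, were not read as expression. They are closely related to Pabpc1 in sequence, and since how reads with several matches were counted is not given in the sources used here, their counts and those of Pabpc1 are uncertain. The third gene, Tob1, was highest in Sd5.

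Of the poly(A) polymerases and cytoplasmic polyadenylation genes, 10 others had 1 possible row and 2 were read in Sd9, with 0 past the fold (12% of all genes read there). The terminal nucleotidyltransferase gene Fam46c was highest in Sd10 (494 CPM in WT, 518 in KO), Nudt21 in Sg and Cpeb2 in Sd4. In the list of cap-binding and initiation factors, 15 of 23 were highest in Sg to Sc2 of WT and 4 in Sd9 or Sd10. Eif4e, the cap-binding protein itself, was one of the 4, at 2299 CPM in Sd10 of WT and 2754 in KO (0.26, 0.19 to 0.33), as was Eif1, at 4586 CPM in Sd9 of WT. In Sd10, 1 of the 16 read was past 1.5-fold and higher in KO. This was Eif2s1 (0.95, 0.29 to 1.66), at 20.8 CPM in Sd10 of WT against 303 in Sc1, and it was chosen for mention after its value was seen. Of all genes read in Sd10, 14.5% were past the fold. Eif5 was just below the fold there (0.58, 0.47 to 0.69). In Sd9, 1 of the 21 read was past the fold in each direction (12% of all genes read there were past it in either direction). These were Eif4a3 (0.86, 0.10 to 1.68), at 23 WT and 41 KO UMIs, and Eif4ebp1 (-0.62, -1.47 to 0.18), at 35 and 22, also named after their values were seen.

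Among the fragile X family and polysome proteins, 12 of 17 others were highest in Sg to Sc2 and 0 of 8 read in Sd9 and 0 of 4 in Sd10 were past the fold. Of all genes read, 12% were past it in Sd9 and 14.5% in Sd10. The mitochondrial RNA anchor Akap1 shared the late course of Fxr1, with 580 CPM in Sd10 of WT and 573 in KO, whereas Pcbp2 was highest in Sc2 and Igf2bp3 in Sd7 of WT. Among DEAD-box and granule proteins, 7 of the 8 read in Sd9 were higher in KO, with a median of 0.39, beside 57.5% and 0.05 for all genes and 79.8% and 0.31 for the early genes described above. The 1 past 1.5-fold there was Tdrd9 (0.98, 0.14 to 1.90), and the 1 past it in Sd10 was Ddx4 (0.78, -0.08 to 1.73), both named after their values were seen. The piRNA pathway gene Mael stood at 0.42 (0.09 to 0.76) and the helicase Ddx5 at 0.46 (0.13 to 0.80), at levels of 52.3 and 50.4 CPM in WT against 942 and 972 at their maxima, and Fhl5 at -0.32 (-0.66 to 0.02). Of the stored spermatid mRNAs, 9 of 17 were highest in Sd9 or Sd10 of WT. In Sd9, 2 of 17 were past 1.5-fold (12% of all genes), both higher in KO and both early genes, Zpbp (0.92, 0.35 to 1.52) and Acr (0.77, 0.15 to 1.44). In Sd10 0 of 15 were (14.5% of all genes). The transition protein mRNAs Tnp1 and Tnp2 had log2 ratios of -0.07 and -0.08 in Sd9. In Sd10 they were at -0.55 (-0.63 to -0.47) and -0.41 (-0.51 to -0.32), and the protamine mRNAs Prm1 and Prm2 at -0.29 and -0.03. Tnp1 stood there at 0.140 of its library mean in WT and 0.128 in KO, and Tnp2 at 0.175 and 0.172. The markers of earlier stages had medians of 0.0649 and 0.0766 and reached 0.182 and 0.161, so that Tnp2 in KO lay above their range. The 5 cells with most UMIs of the gene held 37.5% of Tnp1 and 31.8% of Tnp2 UMIs in WT (25.8% and 19.2% in KO). The ratios of Tnp1 and Tnp2 in Sd10 were therefore not read as a difference in expression. Smcp (0.09), Oaz3 (0.06), Pgk2 (-0.04) and Odf1 (-0.08) were close to 0 in Sd10. Akap4 was at 0.17 (0.11 to 0.24), Hspa1l at 0.24 (-0.17 to 0.65), Prm3 at -0.10 (-0.16 to -0.04) and Ldhc at -0.20 (-0.33 to -0.07). Of the 15 read in Sd10, 4 were above 0, with a median of -0.08.

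The genes with the courses most like those of the 9 were taken from 4299 genes with at least 1000 UMIs, by the lower of the WT and KO Pearson r over the 13 clusters on log2(CPM + 10). They are a description, since all share 2 libraries and 13 totals. For Ybx1 they were Btf3, Ndufa7 and Mael (WT r of 0.983, 0.977 and 0.977), for Ybx3 Prdx6b, Ldhc and Cetn1 (0.985, 0.987 and 0.981), and for Ybx2, whose course with 2 maxima had fewer close partners, Limd2, Atp8b3 and Tma7 (0.949, 0.932 and 0.928). For Pabpc1 they were Ndufc1, Tmbim4 and Mrpl1 (0.993, 0.992 and 0.997), and for Ddx25 Nsmce1, Cds1 and Pam16 (0.993, 0.993 and 0.987). Papolb was most like Meig1, 1700016K19Rik and Phf7 (0.975, 0.966 and 0.961), and Eif4g3 like Bola3, Baz2b and Cfap36 (0.982, 0.972 and 0.969). Paip2 shared its course with Cdv3, Prm3 and Fabp12 (0.991, 0.988 and 0.985), of which Prm3, a stored mRNA, reached 6280 CPM in Sd9 of WT. Fxr1 was most like Dyrk1b, Gpat4 and Sec14l1 (0.980, 0.974 and 0.973), all 3 highest in Sd10 of WT, at 269, 707 and 235 CPM.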

How the data were processed

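The deposited matrix holds raw counts of UMIs per gene row and cell, made by the authors with FastQC 0.11.7, fastp 1, STAR 2.5.3a (mm10) and featureCounts 1.6.2, per the submitters' notes. The cells had been filtered, integrated and clustered in Seurat 3.2.3, and the authors' cell table gives library, cluster, UMI totals and the percent of mitochondrial UMIs. No cell was removed and no doublet caller was run.

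The symbol list is shorter (25065 lines) than the matrix. The 30 mitochondrial symbols were placed so that their sums gave that percent in 12408 of 12408 cells, and rows seen in fewer than 5 cells were allowed to lack a symbol. If any row may lack one, 6 of the 9 genes have 1 possible row (not Ybx3, Pabpc1 and Ddx25).

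The UMIs of a library were added up within each cluster and expressed as CPM (Python 3.11.15, numpy 2.4.6, scipy 1.17.1). Intervals are exact Poisson or binomial (Clopper-Pearson, 95%) for counting error. No test was made, since a genotype is 1 library. The calculation was tested on simulated data. The 9 genes, the lists and the settings were chosen with earlier results of these data known. The text names the 9 genes, 3 genes most like each, the 3 genes with most UMIs of each list, and stored spermatid mRNAs, except 1 gene that is not reported here. Positions follow GENCODE vM21 (GRCm38). 12 alternatives were tried.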

Additional observations from a re-analysis of the deposited data

Results flagged for a closer look

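For 5 genes the KO to WT ratio pointed in opposite directions in 2 clusters, with counting intervals on either side of 0 in each. The difference between the clusters was not tested, since each genotype is 1 library. Ybx1 was at 0.62 (0.38 to 0.85) in Sd9 and -0.25 (-0.33 to -0.16) in Sd7 on the log2 scale, a difference of 0.87. Pabpc1 was at 0.63 (0.50 to 0.76) in Sd9 and -0.13 (-0.20 to -0.06) in Sg, a difference of 0.76. In Sd9 both were at the level of spermatocyte and round spermatid markers, so an opposite direction in expression was not shown for either. In Sg, Pabpc1 stood at 0.533 of its library mean in WT and 0.418 in KO, above Prm1 in WT (0.397) and below it in KO (0.496). Papolb was at 0.66 (0.05 to 1.29) in Sc1, on 43 WT and 50 KO UMIs, and at -0.35 (-0.53 to -0.17) in Sd8, a difference of 1.01. In Sc1 its level relative to the library mean was below that of the elongating spermatid markers in both libraries. An opposite direction in expression was therefore not shown for Papolb. Paip2 was at 0.38 (0.16 to 0.60) in Sc1 and -0.20 (-0.32 to -0.08) in Sd10, a difference of 0.58. Ybx2 was at 0.20 (0.01 to 0.39) in Sg and -0.15 (-0.22 to -0.08) in Sd4, a difference of 0.35. Its level in Sg was read as background (0.289 of the library mean in WT and 0.332 in KO, with Prm1 at 0.397 and 0.496), so an opposite direction in expression was not shown.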

How the results depend on the processing

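The median KO to WT log2 ratio of the 9 genes ranged from 0.08 to 0.24 in Sd9 (0.19 as reported) and from -0.17 to 0.17 in Sd10 (-0.06), and the count of genes at least 1.5-fold apart in Sd10 was 0 under all 12 alternatives. Both medians include genes whose levels in these clusters were read as background. Pabpc1 in Sd9 ranged from 0.54 to 0.76, Ybx1 from 0.53 to 0.62 and Ddx25 from 0.45 to 0.85, so that each was below the 1.5-fold limit under some settings. Pabpc1 in Sd10 was 0.17 with cells thinned to 3000 UMIs. The median Sd10 to Sd3 ratio in WT (-3.90) was -0.97 when centred on all genes, -3.52 without the 20 rows with most UMIs, -4.43 as UMIs per cell and -0.84 with the 6 genes left when any row may lack a symbol, which leaves out Ybx3, Pabpc1 and Ddx25, at -3.90, -5.00 and -4.79. Centring turned Eif4g3 from -1.62 to 1.31, because the median gene was at -2.93. The count of genes with the same highest cluster (6 of 9) was 3 of the 6 under that matching, 8 without the 20 rows with most UMIs, and 6 or 7 under the other alternatives. No paired analysis was possible because each genotype has 1 library, and no replicate could be left out. Depth limits Papolb most, with 44 UMIs in Sd10.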
